A study of Mus musculus with 14 samples.

Results

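The LIM homeodomain and Lmo genes described here are Lhx1, Lhx5, Lhx2, Lhx9, Isl1, Isl2, Lhx3 and Lhx4, which encode transcription factors, and Lmo3 and Lmo4, which encode LIM-only proteins. These 10 genes were taken by name and matched by Entrez identifier, out of 16060 genes in the authors' deposited tables of either day. All 10 were listed at D10 and 6 at D5, where Lhx9, Isl2, Lhx3 and Lhx4 were not analysed. How each table was filtered on low levels is not stated.

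Polyadenylated RNA came from mouse embryonic stem cells (GLI1-FTA cells in the A2Lox.cre background) that were being differentiated into neural cells. GLI1, a transcription factor that activates Hedgehog target genes, was induced with 500 ng/ml doxycycline for 48 h from day 3 to day 5. At D5, the progenitor stage, 4 GLI1-induced samples were compared with 4 untreated control samples. At D10, when cultures were at the immature neuron stage, 5 days had passed since washout, and 3 GLI1-induced samples were compared with 3 untreated control samples. All groups were the same transgenic line. Doxycycline was given to the induced groups alone, so effects of the drug and of GLI1 cannot be told apart. The sources used here do not say whether replicates were separate cultures, so the p-values may measure technical spread.

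LIM homeodomain proteins join paired LIM domains, which bind other proteins, to a homeodomain that binds DNA. LIM-only proteins have LIM domains and no homeodomain, and compete with the LIM homeodomain proteins for the shared cofactor LDB1. In the embryonic spinal cord the combination of these factors marks neuron classes that arise at set dorsal to ventral positions, and Hedgehog signalling sets the ventral ones. Lhx1 and Lhx5 mark inhibitory and several ventral interneuron classes, Lhx2 and Lhx9 the dorsal commissural dI1 class, Isl1 and Isl2 motor neurons, and Lhx3 and Lhx4 motor neurons and V2 interneurons.

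The 250 bases before the annotated start of 4 genes are shown first. Lhx1, Lhx2 and Lmo3 were lower in induced cells at D5, and Isl1 is shown beside them because its D5 value had the opposite sign. The sequences are RefSeq's, on build GRCm38.p6, 5′ to 3′ on the strand of the gene. Capitals mark the CCAAT box (CCAAT, or ATTGG on the other strand) in Lhx1, Lmo3 and Isl1, and the GC box (GGGCGG, or CCGCCC) in Lhx2. The windows lie at chr11:84525535-84525784 (minus strand) for Lhx1, chr2:38339031-38339280 (plus strand) for Lhx2, chr6:138581969-138582218 (minus strand) for Lmo3 and chr13:116309689-116309938 (minus strand) for Isl1.
Lhx1: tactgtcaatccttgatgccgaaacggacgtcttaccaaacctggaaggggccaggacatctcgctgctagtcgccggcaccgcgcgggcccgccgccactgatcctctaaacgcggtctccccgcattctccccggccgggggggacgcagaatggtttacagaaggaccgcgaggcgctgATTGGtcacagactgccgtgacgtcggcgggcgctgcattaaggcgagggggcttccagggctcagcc
Lhx2: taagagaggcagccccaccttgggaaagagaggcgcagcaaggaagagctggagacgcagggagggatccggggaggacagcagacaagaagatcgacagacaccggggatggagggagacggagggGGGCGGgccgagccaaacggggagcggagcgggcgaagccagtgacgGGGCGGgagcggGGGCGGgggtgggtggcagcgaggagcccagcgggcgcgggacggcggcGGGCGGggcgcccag
Lmo3: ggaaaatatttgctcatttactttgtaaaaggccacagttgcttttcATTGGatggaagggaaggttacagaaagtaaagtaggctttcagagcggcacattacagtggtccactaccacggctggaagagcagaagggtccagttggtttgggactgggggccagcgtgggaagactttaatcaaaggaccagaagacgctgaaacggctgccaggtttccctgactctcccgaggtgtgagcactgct
Isl1: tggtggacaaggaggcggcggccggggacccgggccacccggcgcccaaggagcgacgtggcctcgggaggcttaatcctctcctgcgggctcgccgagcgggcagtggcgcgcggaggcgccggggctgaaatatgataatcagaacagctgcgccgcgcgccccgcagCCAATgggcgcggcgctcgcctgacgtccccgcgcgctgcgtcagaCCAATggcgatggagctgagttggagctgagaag

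RefSeq promoter entries matched 9 of the 10 genes, all except Lhx5, and gave 13 windows because some genes have several starts. A CCAAT box lay in 5 of the 13 windows, against 33.8% of 32851 windows of the same length over all genes. A GC box lay in 8 of the 13, which belong to 5 of the 9 genes (3 windows are of Lmo4, of which 2 overlap, and 2 of Lhx3), against 32.7% of all windows. A TATA element (TATAAA, or TTTATA) lay in 1, at Lhx3, against 12.4%. The GLI motif GACCACCCA (TGGGTGGTC on the other strand) was in 0 of the 13 and in 0.225% of all windows. The homeodomain motif TAATTA, which reads the same on either strand, was in 0 of the 13 and in 4.84% of all windows. None of these motifs contains another. The Lhx1 and Isl1 windows held 64.8% and 71.2% G or C with 26 and 33 CpG dinucleotides. The Lmo3 window was lower in both, at 50% G or C with 6 CpG.

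The induction was visible in Gli1 itself. Gli1 (Entrez 14632) had a log2 fold change of 4.79 at D5 in the authors' deposited table (Benjamini-Hochberg adjusted p = 1.12e-81), and transcripts of the transgene and of the endogenous gene may both enter this value. At D10 Gli1 stood at 0.57 in the authors' deposited table (unadjusted p = 0.00161, adjusted p = 0.780). The labelled cell types were checked by their markers, and both kinds were listed on both days. At D5, 7 of 7 neural progenitor markers were listed, with average log2 CPM values of 6.04 to 9.41 in the authors' deposited table, beside 10 of 10 neuron markers at 3.60 to 7.72. At D10, 10 of 10 neuron markers were listed, at average log2 CPM values of 5.03 to 9.11 in the authors' deposited table, beside 7 of 7 progenitor markers at 4.86 to 9.52. Endoderm markers were listed as well, 8 of 9 at D10, with Krt18 at an average log2 CPM of 9.04 and Gata4 at 7.48 in the authors' deposited table.

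The comparison at D5 asks which of these genes respond while GLI1 is induced. Of the 6 genes listed, 4 fell (Lhx1, Lhx5, Lhx2 and Lmo3), 0 rose, and Isl1 and Lmo4 did not pass. The call is an adjusted p under 0.05 over the 15108 genes of the authors' deposited table, where 2.1% of genes were called lower and 2.34% higher. The median log2 fold change of the 6 was -0.98, against 0.0015 over all genes. Values per library were not used, so differences are given with a 95% interval computed here from the standard error (SE) that each p-value implies.

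**Figure D1:**
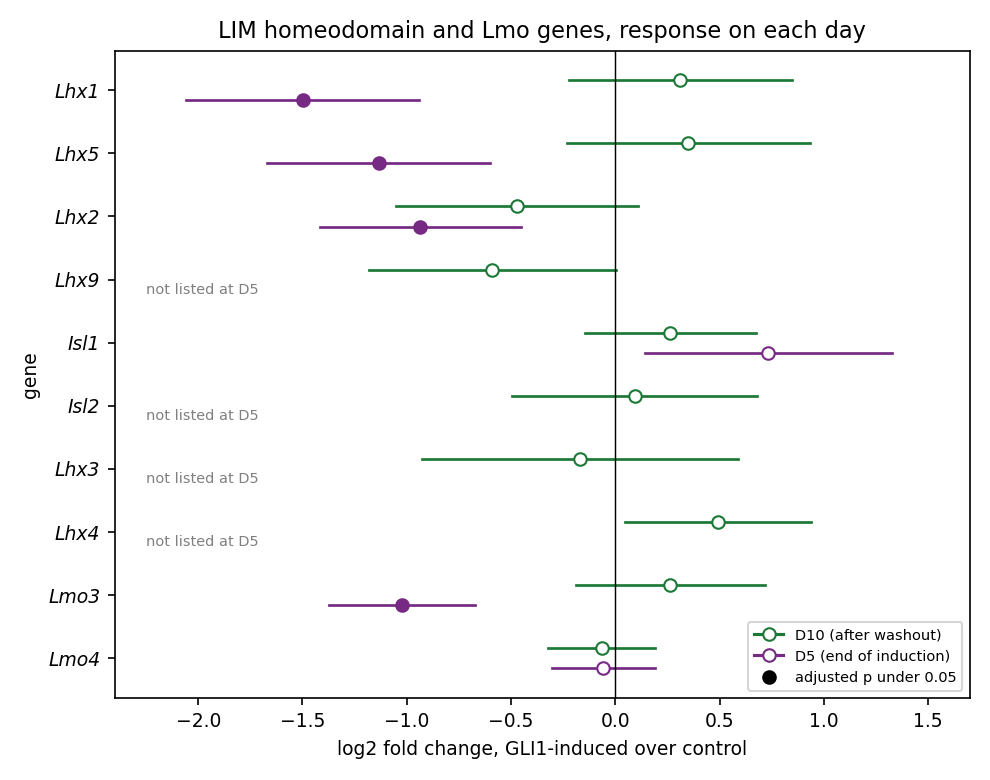
Log2 fold change of GLI1-induced over control cells (x axis) for each gene (y axis), with D10 above D5. Points are the authors' deposited values, bars are 95% intervals from the implied SE, and filled points have an adjusted p under 0.05. Lhx1, Lhx5, Lhx2 and Lmo3 are filled at D5, between -1.50 and -0.93, and no D10 point is filled.

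Lhx1 (Entrez 16869), which marks inhibitory interneurons, had the largest fall of the 6. Its log2 fold change was -1.50 in the authors' deposited table for D5 (adjusted p = 1.26e-05, implied SE 0.29), or 2.83-fold lower in induced cells. Ordered from the lowest of the 15108 values, it stood at rank 22. Its close relative Lhx5 (Entrez 16873) stood at -1.13 in the authors' deposited table (adjusted p = 0.00159, implied SE 0.27), or 2.19-fold lower, at rank 64. The 95% intervals of the pair, from -2.06 to -0.94 for Lhx1 and from -1.67 to -0.60 for Lhx5, overlap.

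Lhx2 (Entrez 16870), a factor of forebrain and eye progenitors as well as of dI1 neurons, fell less. The authors' deposited table gives it a log2 fold change of -0.93 (adjusted p = 0.00572, implied SE 0.25), or 1.91-fold lower in induced cells. Lmo3 (Entrez 109593) was at -1.02 in the authors' deposited table and had the smallest p of the 6 (adjusted p = 8.84e-07, implied SE 0.18), or 2.03-fold lower. Lhx2 and Lmo3 held ranks 123 and 84 from the lowest value.

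The remaining LIM-only gene did not follow Lmo3. Lmo4 (Entrez 16911) had a log2 fold change of -0.06 in the authors' deposited table (adjusted p = 1), with a 95% interval of -0.30 to 0.19. That interval lies above the interval of Lmo3, which ran from -1.37 to -0.67. Isl1 (Entrez 16392), the motor and dI3 neuron factor, was the one gene with a positive value. It stood at 0.73 in the authors' deposited table with an unadjusted p of 0.0150 and an adjusted p of 0.210, and its 95% interval ran from 0.14 to 1.33. At an unadjusted p under 0.05, 4.83% of all genes were higher and 5.83% lower.

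**Figure D2:**
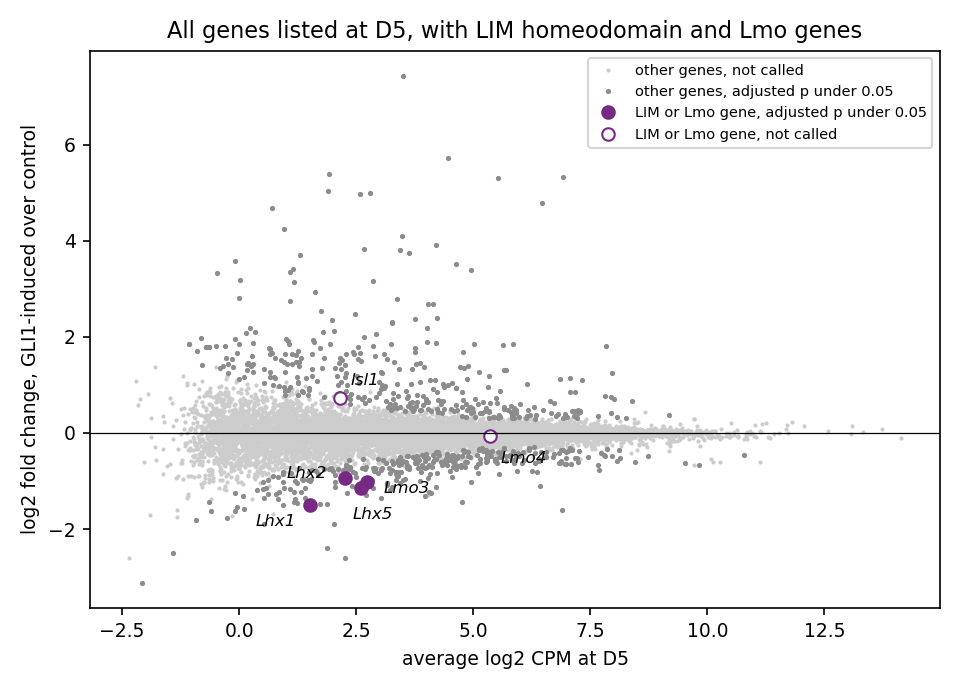
Log2 fold change of GLI1-induced over control cells at D5 (y axis) against the average log2 CPM (x axis) for every listed gene, with the 6 LIM homeodomain and Lmo genes in purple. Lhx1, Lhx5, Lhx2 and Lmo3 sit at the lower edge of the cloud at average log2 CPM values of 1.51 to 2.74, and Lmo4 lies near 0 at 5.37.

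Levels in each group were estimated from the authors' deposited average and fold change, taking the average as the mean of 2 groups of equal size. These are estimates with no SD, and neighbours in their order could not be compared with a spread between samples. Lhx1 was estimated at 1.49 CPM in induced cells and 4.20 CPM in control cells at D5, and Lhx5 at 3.81 CPM in induced and 8.37 CPM in control cells. Lmo3 was estimated at 4.39 CPM in induced and 8.93 CPM in control cells, and Lhx2 at 3.31 CPM in induced and 6.32 CPM in control cells. The order ran the other way for Isl1, with 5.57 CPM in induced and 3.35 CPM in control cells. Per kilobase of the longest coding transcript, control levels at D5 ran from 25.2 CPM per kb for Lmo4 through 3.11 for Lhx5, 2.44 for Lmo3, 2.23 for Lhx2 and 1.33 for Isl1 to 1.09 for Lhx1.

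The D10 comparison asks how much of these differences remained after washout. It had 3 samples a group, where D5 had 4, and a median p of 0.684 over all genes, against 0.536 at D5. A lack of calls at D10 therefore does not show that a difference was gone. None of the 10 genes was called higher or lower at D10 (0 of 10) in the authors' deposited table, where 0.0826% of 15744 genes were called, all 13 of them higher. By unadjusted p under 0.05, 1 of the 10 passed (Lhx4), against 1.53% of all genes. The median log2 fold change of the 10 was 0.18, against 0.0027 over all genes, with 6 above 0 and 4 below.

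Of the 4 genes that fell at D5, 3 had positive values at D10 and Lhx2 a negative one. Lhx1 stood at 0.31, Lhx5 at 0.35 and Lmo3 at 0.26 in the authors' deposited table for D10, each with an adjusted p of 1. The 95% interval of Lhx1 ran from -0.22 to 0.85 and that of Lhx5 from -0.23 to 0.93. Lhx2 was at -0.47 in the authors' deposited table (unadjusted p = 0.110), with an interval of -1.05 to 0.11, and its dI1 partner Lhx9 (Entrez 16876) was at -0.59 (unadjusted p = 0.0511).

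The ventral factors were mixed. Lhx4 (Entrez 16872), which acts in V2 and motor neurons, stood at 0.49 in the authors' deposited table (unadjusted p = 0.0309, adjusted p = 1), while Lhx3 (Entrez 16871) was at -0.17 (unadjusted p = 0.661). Isl1 was at 0.26 and Isl2 (Entrez 104360) at 0.09 in the authors' deposited table, and Lmo4 at -0.06. Isl1, Isl2 and Lmo4 had 95% intervals of -0.15 to 0.68, -0.49 to 0.68 and -0.32 to 0.19. The widest interval was that of Lhx3, from -0.93 to 0.59, which was also the gene with the lowest average log2 CPM, 0.05.

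**Figure D3:**
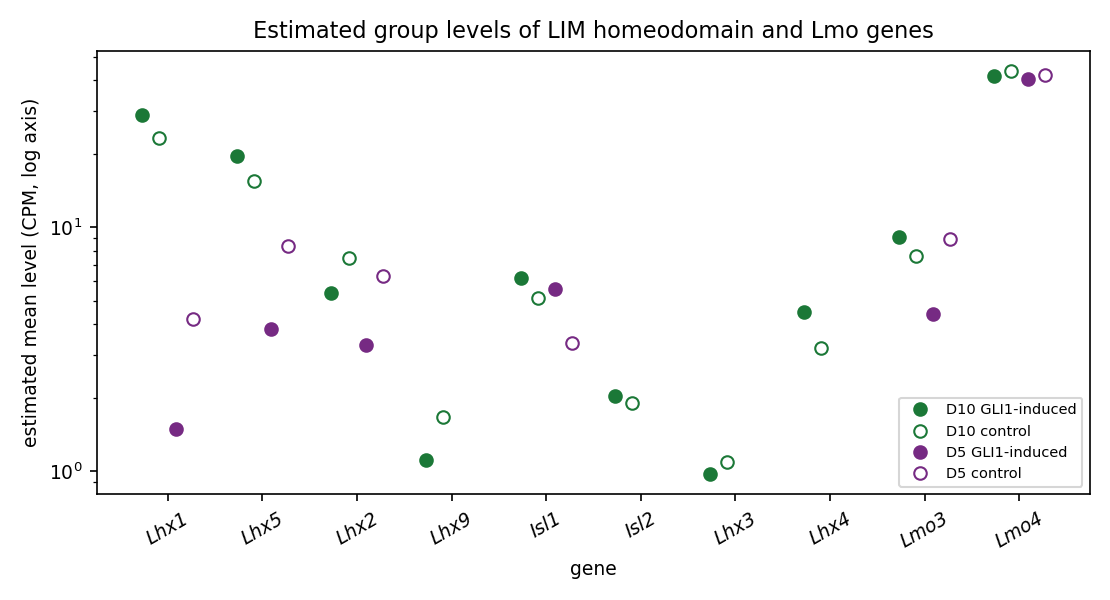
Estimated mean level in CPM (y axis, log scale) of each gene (x axis) in GLI1-induced (filled) and control (open) cells at D10 (green) and D5 (purple). Lhx1 spans the widest range, with 28.9 CPM in induced cells at D10 and 1.49 CPM in induced cells at D5, while Lmo4 stays between 40.4 and 43.7 CPM.

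The cultures themselves changed between the days. Tables of the days were normalized separately and levels across them were not tested. In control cells Lhx1 was estimated at 23.3 CPM at D10 and 4.20 CPM at D5, a ratio of 5.55, and 98.2% of the 14792 genes in both tables had a lower ratio. The ratio of D10 to D5 control levels was 1.84 for Lhx5, 1.54 for Isl1, 1.18 for Lhx2, 1.04 for Lmo4 and 0.854 for Lmo3, against a median of 1.01 over all shared genes. In induced cells the ratio of D10 to D5 was 19.5 for Lhx1, 5.16 for Lhx5 and 2.08 for Lmo3. At D10 the estimated control levels per kilobase ran from 26.2 CPM per kb for Lmo4, 6.06 for Lhx1 and 5.74 for Lhx5 down to 0.338 for Lhx9. By this estimate Lhx1 was the second highest of the 10 genes in control cells at D10 and the lowest of the 6 at D5.

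The responses at D10 and D5 were then compared directly. The difference of the log2 fold changes was divided by the root of the summed squared implied SEs, and p-values were adjusted over the 14792 genes in both tables, of which 1.24% were called. Of the 6 genes in both, 3 differed, all with a higher value at D10, against 0.379% of all genes called in that direction. Lhx1, at 0.31 at D10 and -1.50 at D5 in the authors' deposited tables, differed by 1.81 (95% interval 1.04 to 2.59, Benjamini-Hochberg adjusted p = 0.000697). From the authors' deposited values, Lmo3 differed by 1.29 (0.71 to 1.86, adjusted p = 0.00153) and Lhx5 by 1.48 (0.69 to 2.28, adjusted p = 0.0227). The implied SEs carry the assumptions of the authors' test, and with Holm's adjustment 0 of the 3 passed (adjusted p = 0.0658 for Lhx1, 0.153 for Lmo3 and 1 for Lhx5), while 3 had an unadjusted p under 0.05.

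Lhx2, Isl1 and Lmo4 did not pass this test. Lhx2 stood at -0.47 at D10 and -0.93 at D5 in the authors' deposited tables, a difference of 0.46 with a 95% interval of -0.29 to 1.22. The difference was -0.47 for Isl1 (-1.19 to 0.25) and -0.0077 for Lmo4 (-0.36 to 0.35). These intervals do not show that Lhx2 and Isl1 responded alike on both days.

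The rest of the family and its cofactors were looked at next. Among 6 further LIM homeodomain and Lmo genes, 4 were listed at D5, of which 1 fell and 0 rose. This was Lmo2, a partner of Tal1 in blood and vessel formation, at a log2 fold change of -1.19 in the authors' deposited table (adjusted p = 0.0130). From the authors' p-values, Lmo2 missed the threshold when they were rescaled within bins of genes of like level (0.0671), with Holm's adjustment (1) and at a threshold of 0.01, and its average log2 CPM of 0.38 is under the minimum of a further alternative. The authors' deposited table for D5 also gave Lmx1b, a factor of dorsal excitatory and serotonergic neurons, at 1.02 (adjusted p = 0.0583), Lhx6 at -0.57 (0.285) and Lmo1 at -0.37 (0.706). By D10, 5 of the 6 were below 0 and 0 were called, the lowest being the roof plate factor Lmx1a at -0.43 in the authors' deposited table (unadjusted p = 0.0209). Of the 6 LIM cofactors (Ldb1, Ldb2, Ssbp2, Ssbp3, Ssbp4 and Rlim), 0 were called on either day, with medians of 0.02 at D10 and -0.03 at D5. Ldb1, the shared partner, stood at 0.06 at D10 and 0.04 at D5 in the authors' deposited tables. The smallest p among cofactors belonged to Ssbp4 at D5 (0.44 in the authors' deposited table, unadjusted p = 0.153), followed by Ldb2 at D10 (-0.47, unadjusted p = 0.212).

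**Figure D4:**
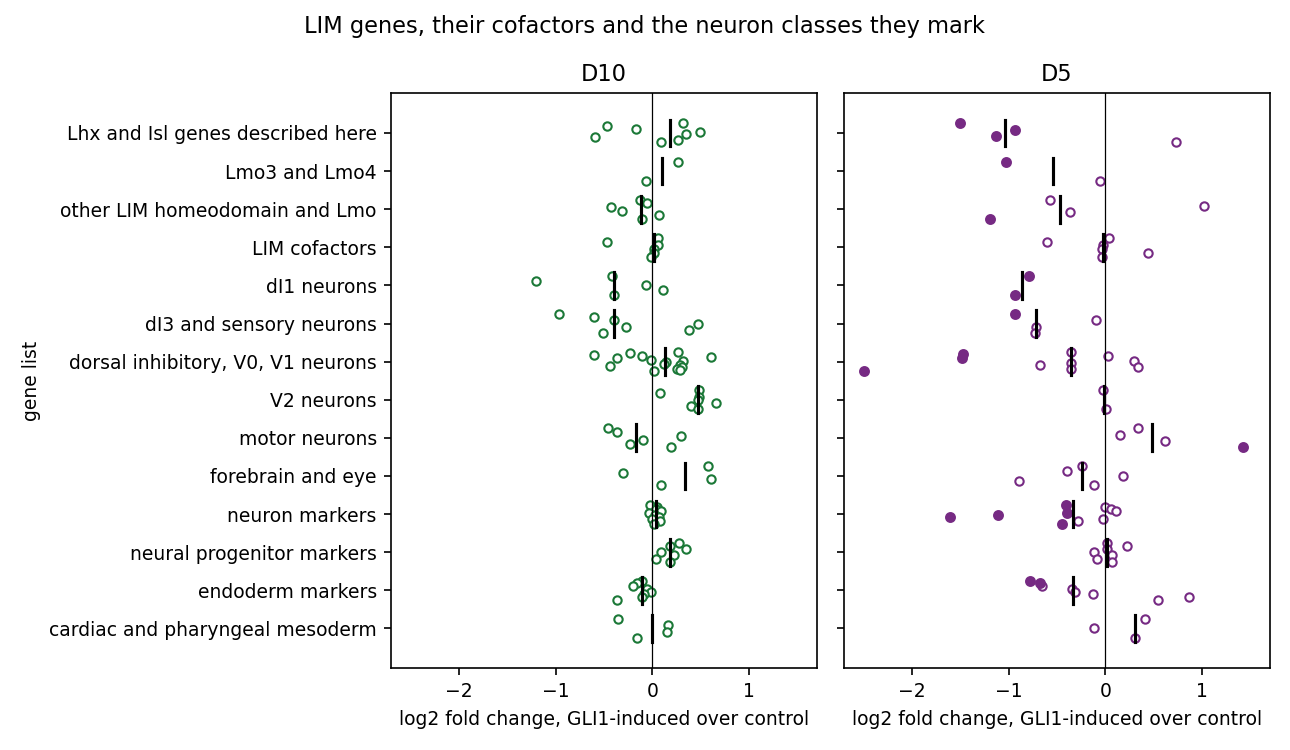
Log2 fold change of GLI1-induced over control cells (x axis) for the genes of each list (y axis), at D10 (left) and D5 (right). Each circle is a gene with the authors' deposited value, filled where the adjusted p is under 0.05, and black bars are medians. Filled circles occur at D5 and not at D10. At D10 the V2 and neural progenitor lists lie above 0 and the endoderm list below 0.

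Of 17 genes of the neuron classes that Lhx1 and Lhx5 mark, 10 were listed at D5. Of these 10, 3 were lower and 0 higher, against 2.1% and 2.34% of all genes. Their median was -0.35, and 3 of the 10 had positive values. The 7 not called in the authors' deposited table were Dmrt3 (-0.68), Pax2 (-0.36), Gad2 (-0.35), En1 (-0.35), Gbx1 (0.02), Bhlhe22 (0.30) and Foxp2 (0.34). Tfap2b, a factor of inhibitory interneurons, was at -1.49 in the authors' deposited table (adjusted p = 9.43e-07), and Prdm13, which promotes the inhibitory fate, at -1.47 (adjusted p = 1.48e-07). Slc32a1, the vesicular transporter of inhibitory transmitters, was at -2.50 in the authors' deposited table (adjusted p = 0.00246) at a low average log2 CPM of -1.41. Slc32a1 did not pass with Holm's adjustment of the authors' p-values (adjusted p = 0.815), and its level is under the minimum of a further alternative. None of the 16 genes listed at D10 was called (0 of 16), and their median was 0.13.

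Of the 5 genes of the dI1 class, which Lhx2 and Lhx9 mark, 2 were listed at D5. Of these, 2 of 2 were lower, against 2.1% of all genes. The other 3 were not listed at D5, and nor was Lhx9, so these values do not describe the class as a whole. Pou4f1, which also belongs to sensory and dI3 neurons, was at -0.93 in the authors' deposited table (adjusted p = 1.06e-05), and the commissural axon receptor gene Robo3 at -0.79 (adjusted p = 2.91e-05). In the list of dI3 and sensory neuron genes, which go with Isl1, Pou4f1 was the single call among 4 listed genes at D5, and the median was -0.72. At D10, 0 of 5 dI1 genes and 0 of 7 dI3 and sensory genes were called, each list with a median of -0.40. The lowest value of these lists at D10 was that of Barhl1 at -1.21 in the authors' deposited table (adjusted p = 0.144), named after its value was seen.

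Motor neuron genes, which go with Isl1, Isl2 and Lhx3, were higher in 1 of 4 listed genes at D5 and lower in 0. Of all genes, 2.34% were higher and 2.1% lower. The median of the 4 was 0.48. The call was Ret, the receptor kinase for glial cell line-derived neurotrophic factor, at 1.43 in the authors' deposited table (adjusted p = 7.10e-18). By D10 the median of the 6 listed motor neuron genes was -0.17, with 0 called. Of the V2 genes, which go with Lhx3 and Lhx4, 0 of 2 were called at D5 and 0 of 7 at D10. All 7 had a positive value at D10, with a median of 0.47 against 0.0027 over all genes. A single sign was not particular to this list at D10. There, 7 of 7 neural progenitor markers were above 0 and 8 of 8 endoderm markers below it. The smallest p-values of the V2 list were those of the V2b factors Tal1 (0.47 in the authors' deposited table, adjusted p = 0.780) and Gata2 (0.65, adjusted p = 1). After the same rescaling of the authors' p-values, the adjusted values were 0.00120 for Tal1 and 0.00325 for Gata2, and 0.204 for Lhx4. Of the forebrain and eye genes, which go with Lhx2, 0 of 4 at D10 and 0 of 5 at D5 were called, with Otx2 at 0.61 and -0.89 in the authors' deposited tables of these days and Six3 at 0.58 at D10.

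General markers of cell types moved at D5 too. Of the 10 neuron markers, 5 were lower and 0 higher, against 2.1% and 2.34% of all genes, with a median of -0.34. The neurofilament genes Nefm and Nefl led at -1.61 (adjusted p = 5.12e-34) and -1.11 (3.02e-17) in the authors' deposited table. Ina was at -0.45 (0.0303), Tubb3 at -0.41 (0.0115) and Stmn2 at -0.39 (0.00701) in the authors' deposited table. Nefm and Nefl also passed with Holm's adjustment of the authors' p-values and with a 2-fold minimum, while Ina, Tubb3 and Stmn2 passed neither. Other genes expressed across neurons did not pass, with Dcx at -0.0026, Elavl3 at 0.05, Elavl4 at 0.11 and Snap25 at -0.02 in the authors' deposited table, each with an adjusted p of 1. Map2 did not pass either, at -0.28 in the authors' deposited table (unadjusted p = 0.0116, adjusted p = 0.175). In bulk RNA, fewer neurons and less RNA of these genes per neuron cannot be told apart, and the part of neuron content in the falls of Lhx1, Lhx5, Lhx2 and Lmo3 was not tested. Of the 7 neural progenitor markers, 0 were called on either day, with medians of 0.19 at D10 and 0.018 at D5, and the smallest p-values were those of Nes (0.35 in the authors' deposited table for D10) and Fabp7 (0.19).

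Endoderm markers, a lineage that also uses Lhx1, were lower at D5 in 2 of 8 listed genes and higher in 0. Of all genes, 2.1% were lower and 2.34% higher. The median of the 8 was -0.33. The 2 lower genes were Gata4 at -0.78 (adjusted p = 0.00569) and Gata6 at -0.67 (0.0167) in the authors' deposited table. Their part in the fall of Lhx1 was not tested. Of the 8, 6 were below 0, among them Sox17 at -0.65 in the authors' deposited table (adjusted p = 0.0597). The 2 above 0 were Ttr at 0.54 (adjusted p = 0.0950) and Afp at 0.86 (adjusted p = 0.258) in the authors' deposited table. At an unadjusted p under 0.05, 4 of the 8 were lower and 2 higher, against 5.83% and 4.83% of all genes. By D10 the median was -0.11, with 0 of 8 called. Isl1 also marks cardiac and pharyngeal mesoderm, and of 8 markers of it 4 were listed at D10 and 3 at D5, without Nkx2-5, Tbx5, Hand2 and Tbx1. None of those listed was called on either day, and at D5 Mef2c stood at 0.41 (unadjusted p = 0.110) and Fgf10 at 0.30 (0.145) in the authors' deposited table.

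RefSeq annotates 2 non-coding genes over Lhx2 and 3 over Lmo3, and none of these 5 was in the tables. Since the counting is not described, reads from them cannot be told apart from those of Lhx2 and Lmo3. The other 8 genes overlap no annotated gene. Lhx1os, a non-coding RNA that starts beside Lhx1 on the opposite strand, had a D10 value of 0.22 (the authors' deposited table, adjusted p = 1), beside 0.31 for Lhx1.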

How the data were processed

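The files are the authors' own comparisons of GLI1-induced with control samples at D5 and D10, without library values, which leaves the depth of each sample unknown. Per the file headers, each row of the deposited tables holds an Entrez identifier with its log fold change (read here as log2), the p-value, the FDR and an average log CPM. Summed after raising 2 to it, that average gives 1001540 (D5) and 1001340 (D10), close to what CPM values sum to, so its base is 2. The base of the fold change is assumed to be the same. The deposited FDR equals a Benjamini-Hochberg adjustment of the deposited p-values, within 3.41e-05. No source used here names the aligner, the counting, the genome build or the statistical test. No member shares its average and fold change with another row.

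Symbols came from RefSeq (GRCm38.p6), which matched 94.6% of identifiers on either day, and no gene coordinates are printed because the authors' build is unknown. Promoter windows carry RefSeq's own coordinates. Transcript lengths came from GENCODE M21. Drgx was matched as Prrxl1.

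Each p-value was turned into a z with the sign of its fold change, and the implied SE is the size of the log2 fold change over the size of z. Genes whose implied SE was not finite (227 in the D5 table, 288 in the D10 table) counted as unchanged between days. The test between days is two-sided with a normal reference. Procedures were tested on simulated data with normal errors of the implied SE, which cannot check whether the authors' p-values meet that assumption. Python 3.11.15, pandas 2.3.3, numpy 2.4.6, scipy 1.17.1 and matplotlib 3.10.9 were used.

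The genes and lists were chosen with earlier results of these data known. All 10 genes are named, and of each other list the genes called on either day or, where none was, the 2 with the smallest p. Lmx1b, Lhx6, Lmo1, Lmx1a, Ldb1, Barhl1, Ttr, Afp, Dcx, Elavl3, Elavl4, Snap25 and Lhx1os were named beyond this rule after their values were seen, and Krt18 as a check of cell types. Dmrt3, Pax2, Gad2, En1, Gbx1, Bhlhe22, Foxp2, Sox17 and Map2 were likewise named after their values were seen. Alternatives were thresholds of 0.01 and 0.1, Holm's adjustment, an average log2 CPM of at least 1, a 2-fold minimum, an implied SE from genes of like level (about 500 a bin), and z rescaled in such bins so that its median size is that of a standard normal.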

Additional observations from a re-analysis of the deposited data

Results flagged for a closer look

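The log2 fold change of GLI1-induced over control cells differed between the days for 3 genes, by a test of the difference itself. With Holm's adjustment 0 of the 3 passed. The log2 fold change at D10 minus that at D5 was 1.81 for Lhx1, 1.48 for Lhx5 and 1.29 for Lmo3. In each, the D5 value was negative and the D10 value positive, though none of the 3 was called at D10 and each D10 interval included 0. Of all 14792 genes tested, 0.379% had a positive difference that passed.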

How the results depend on the processing

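The 4 falls at D5 stayed past the threshold at 0.01 and 0.1, among genes whose average log2 CPM is 1 or more, and with rescaled z. With Holm's adjustment of the authors' p-values 2 of the 4 passed, Lhx1 and Lmo3, and Lhx5 (adjusted p = 0.482) and Lhx2 (1) did not. With a 2-fold minimum 3 passed, as Lhx2 is under it. At D10, 0 of the 10 genes passed under any of the 6 alternatives, including rescaled z, which raised the calls over all genes to 121, against 13 as deposited (the minimum level leaves out Isl2, Lhx3 and Lhx9). Of the other lists, 14 genes passed at D5 as deposited, 7 with Holm's adjustment and 7 with a 2-fold minimum. At D10, 8 passed with rescaled z, against 0 as deposited, among them Barhl1 and Tfap2b on the lower side and Gata2, Tal1 and Nes on the higher side. These alternatives for the other lists were chosen after seeing the data. In the comparison of days, which uses the authors' p-values, 0 of the 3 LIM and Lmo genes passed with Holm's adjustment, against 89 of all 14792 genes, and Lhx5 missed a threshold of 0.01 (adjusted p = 0.0227). The other alternatives kept all 3 differences, and over all 6 the adjusted p from the authors' values ran from 4.54e-07 to 0.0658 for Lhx1, from 1.47e-06 to 1 for Lhx5 and from 1.76e-05 to 0.153 for Lmo3. The estimated control level of Lhx1 at D5 was 4.78 CPM in place of 4.20 CPM when the deposited average was read as the mean of the log levels, an alternative chosen after seeing the data. No direction reversed, since no alternative changes a fold change. No paired analysis was possible because the files hold no values per sample, and for the same reason no sample could be left out. Depth per sample is unknown, and the wide intervals of Lhx3 and Lhx9 limit what D10 can show for them.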
